A study of Mus musculus with 4 samples.

Results

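Ribosome biogenesis factors are the proteins that make ribosomes without being part of them. RNA polymerase I transcribes the long ribosomal RNA precursor in the nucleolus, small nucleolar ribonucleoprotein particles guide the chemical modification and cleavage of that precursor, and large sets of assembly proteins then fold it with ribosomal proteins into the small and large subunits. A liver cell that leaves quiescence enlarges before it divides and has to make ribosomes to do so, and the transcription factor Myc is a known activator of many of these genes.

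The genes described here were 34 named factors of this pathway, taken wherever a probe set carried that single symbol. Of the 34 genes, 31 had such a probe set, 1 each, out of 19505 genes measured, while Gnl3, Nop56 and Ebna1bp2 were not analysed here. By role they were 4 subunits of RNA polymerase I, 5 nucleolar proteins, 3 proteins of the box C/D particle, 4 of the box H/ACA particle, 6 of small-subunit processing and 9 of large-subunit assembly.

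Mouse liver RNA was profiled on 4 whole-transcript arrays, 1 for each of 4 groups, to ask how loss of Mcu in hepatocytes affects regeneration. Mcu encodes the pore of the mitochondrial calcium uniporter. All animals were male C57BL6J mice. Per the treatment protocol, mice with both Mcu alleles floxed received an adeno-associated virus of serotype 8 carrying Cre at 10 to 12 weeks of age, and littermates that received the Null virus were the controls. The groups were knockdown liver 30 h after 70% partial hepatectomy (AAV8-TBG-Cre), knockdown liver at 0 h (AAV8-TBG-Cre), control liver 30 h after the same operation (AAV8-TBG-Null, genotype label Wild type) and control liver at 0 h (AAV8-TBG-Null). The TBG promoter is active in hepatocytes, so other liver cells were not targeted, and surgery followed 5 weeks after the virus. The series text speaks of pools of 4 mice for a genotype, so each array stands for 1 pooled sample and no value below carries an error or a test. No sham-operated group was included, so loss of liver, the operation itself and the hour of sampling cannot be told apart in a response.

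Mcu read 2.63 on the knockdown 30 h array and 2.83 on the knockdown 0 h array, against 4.30 and 4.77 in control liver, which is the direction of the titles. Ethanol feeding is named in the sample descriptions and in no other label, and for knockdown liver at 30 h the description has 1 h, unlike its title and time label. All values are log2 expression, on which a difference of 1 is 2-fold. The 10 hepatocyte markers averaged between 11.58 and 11.71 on the 4 arrays, near the top of the scale. Over 22206 probe sets the array medians lay between 3.75 and 3.84. The arrays were not centred equally among well-measured genes, so each median over the ribosome biogenesis genes is given beside that of all genes and beside that of the 9759 brighter genes, those whose mean over the arrays was at least 3.83. Of the 31 genes, 28 belonged to the brighter genes. The exceptions were Dkc1, Rrp12 and Utp14a. Utp20 passed narrowly (mean 3.87) and only through its control 30 h array, its values on the remaining arrays lying below 3.83. Wdr12 (mean 4.08) and Bop1 (mean 3.945) lay below 3.83 on both 0 h arrays and above it on both 30 h arrays. Nolc1 (3.52) and Nop14 (3.76) lay below it on the knockdown 0 h array.

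Promoter sequence was taken from RefSeq (build GRCm38.p6), which held an entry for 26 of the 31 genes. The 250 bases before the transcription start are shown, in the direction of the gene, for 5 of them. Utp20 (chr10:88826815-88827064, minus strand) and Nop58 (chr1:59684756-59685005, plus strand) were more than 2-fold higher at 30 h in control liver, Nolc1 (chr19:46075597-46075846, plus strand) and Polr1e (chr4:45018359-45018608, plus strand) were lower at 30 h in control liver and higher in knockdown liver, and Nop2 (chr6:125131633-125131882, plus strand) was the one gene with an E-box in this window. Capitals mark matches, on either strand, to CACGTG (E-box, which Myc can bind), TTTCCCGC or TTTGGCGC (E2F sites), GGGCGG (GC box), CCAAT and TATAAA.
Utp20: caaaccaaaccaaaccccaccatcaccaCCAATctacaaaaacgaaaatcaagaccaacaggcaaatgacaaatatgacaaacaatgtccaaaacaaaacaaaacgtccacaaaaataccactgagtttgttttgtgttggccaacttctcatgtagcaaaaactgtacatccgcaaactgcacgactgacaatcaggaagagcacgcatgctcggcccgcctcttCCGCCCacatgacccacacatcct
Nop58: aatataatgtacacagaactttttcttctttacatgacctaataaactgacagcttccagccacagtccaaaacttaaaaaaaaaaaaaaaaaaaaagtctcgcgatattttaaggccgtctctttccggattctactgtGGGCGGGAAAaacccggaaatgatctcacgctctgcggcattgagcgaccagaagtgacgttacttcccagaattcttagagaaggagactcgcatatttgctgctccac
Nop2: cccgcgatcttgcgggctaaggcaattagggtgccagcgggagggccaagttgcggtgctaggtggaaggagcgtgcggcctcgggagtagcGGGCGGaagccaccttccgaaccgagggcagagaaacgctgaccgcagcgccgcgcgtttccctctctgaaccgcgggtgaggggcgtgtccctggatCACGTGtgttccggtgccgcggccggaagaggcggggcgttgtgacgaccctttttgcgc
Nolc1: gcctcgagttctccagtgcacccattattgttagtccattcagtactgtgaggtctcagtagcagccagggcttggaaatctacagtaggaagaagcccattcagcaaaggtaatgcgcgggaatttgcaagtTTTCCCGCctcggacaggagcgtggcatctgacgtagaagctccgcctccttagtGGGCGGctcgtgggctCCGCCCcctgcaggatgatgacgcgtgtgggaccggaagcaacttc
Polr1e: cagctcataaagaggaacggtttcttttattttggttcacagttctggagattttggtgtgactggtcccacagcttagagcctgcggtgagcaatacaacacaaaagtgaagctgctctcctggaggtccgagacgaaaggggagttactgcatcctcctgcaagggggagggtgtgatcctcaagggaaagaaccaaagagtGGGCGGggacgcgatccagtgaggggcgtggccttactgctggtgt

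The E-box of Nop2 began 60 bases before the start. Nop58 carried an E2F site on the other strand that overlapped a GC box and began 108 bases before the start, and the E2F site of Nolc1 began 117 bases before it. Polr1e had a GC box alone, 46 bases before the start, and Utp20 had a GC box and a CCAAT box. Over the 26 windows, CACGTG was found in 1 (3.85%), against 6.05% of the windows of 27025 genes and 6.88% of those of the 15691 measured genes with an entry. GGGCGG was found in 18 (69.2%), against 32.9% of all genes and 44.5% of measured genes. CCAAT was found in 7 (26.9%, against 34.5% of all genes) and TATAAA in 3 (11.5%, against 13.0%). TTTCCCGC was found in 2 (7.69%, against 0.929% of all genes and 1.28% of measured genes). TTTGGCGC was found in 1, Ncl (3.85%, against 0.437% and 0.574%). Windows were held for 115 of the other ribosome biogenesis genes described below. Of these, 10 (8.7%) had CACGTG, 65 (56.5%) had GGGCGG, and 0 had TTTCCCGC or TTTGGCGC. These matches describe the letters in the window and say nothing of whether a factor bound there. Nop58 and Nolc1, which both held TTTCCCGC, had control responses of opposite direction.

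In knockdown liver, 26 of the 31 genes were higher at 30 h than at 0 h and 5 were lower, mostly by small amounts. The share higher was 83.9%, against 50.2% of all genes and 46.2% of the brighter genes. The 26 became 21 after median centring, 24 after quantile normalization and 25 after cyclic loess. The median difference was 0.17, against 0.01 over all genes and -0.04 over the brighter genes. Differences of at least 1.5-fold were reached by 6 genes (19.4%), all higher, against 10.4% of all genes at least 1.5-fold higher and 9.12% of the brighter genes. They were Wdr12 (0.90), Rrp12 (0.85), Nop58 (0.80), Mybbp1a (0.74), Nop2 (0.66) and Rrp1b (0.61), the last of which did not pass after median centring. None was at least 1.5-fold lower (9.69% of all genes), and none was at least 2-fold higher (2.72%) or lower (2.01%).

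In control liver, 22 genes were higher at 30 h, 8 were lower and Ppan read the same. The share higher was 71.0%, against 49.0% of all genes and 58.2% of the brighter genes. The 22 became 23 after median centring and 19 after quantile normalization or cyclic loess. Differences spread more widely than in the knockdown (SD over the genes 0.53, against 0.33 in the knockdown). Over all genes the SD was 0.56 in control and 0.51 in knockdown liver, and over the brighter genes 0.59 and 0.54. The median control response of the 31 genes was 0.29, against -0.01 over all genes and 0.10 over the brighter genes. At least 1.5-fold higher were 9 genes (29.0%), against 12.5% of all genes and 17.5% of the brighter genes. These were Nop58 (1.38), Utp20 (1.36), Wdr12 (1.32), Pes1 (0.98), Noc2l (0.92), Nop14 (0.85), Mybbp1a (0.80), Nhp2 (0.75) and Ddx21 (0.71). The first 3 of them passed 2-fold (9.68% of the 31 genes, against 4.19% of all genes). None was at least 1.5-fold lower (11.0% of all genes) or 2-fold lower (2.22%), the lowest being Polr1c (-0.44) and Polr1e (-0.43). After quantile normalization or cyclic loess Nhp2 and Ddx21 no longer passed 1.5-fold, leaving 7 genes higher, and after quantile normalization Polr1c passed on the lower side (-0.61). Median centring added Npm1 to the higher genes. Over all genes the higher share was 11% after quantile normalization, 11.9% after cyclic loess and 13.1% after median centring.

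The responses of the 2 genotypes come from different arrays. Across the 31 genes they correlated weakly (Pearson's r 0.37, Spearman's rho 0.27), between the values across all genes (0.28 and 0.15) and across the brighter genes (0.46 and 0.29). Genes are not independent replicates and the 4 arrays may share a normalization, so these are descriptions. Higher at 30 h in both genotypes were 20 genes (64.5%), against 26.9% of all genes and 31.1% of the brighter genes. Lower in both were Utp15 and Utp14a (6.45%), against 26.6% of all genes and 25.8% of the brighter genes. Polr1b, Polr1c, Polr1e, Nolc1, Rrs1 and Nop16 were higher in knockdown liver and lower in control liver, and Npm1 and Wdr43 ran the other way. Of all 19505 genes, 4461 were higher in knockdown and lower in control liver, and 4235 ran the other way.

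**Figure D1:**
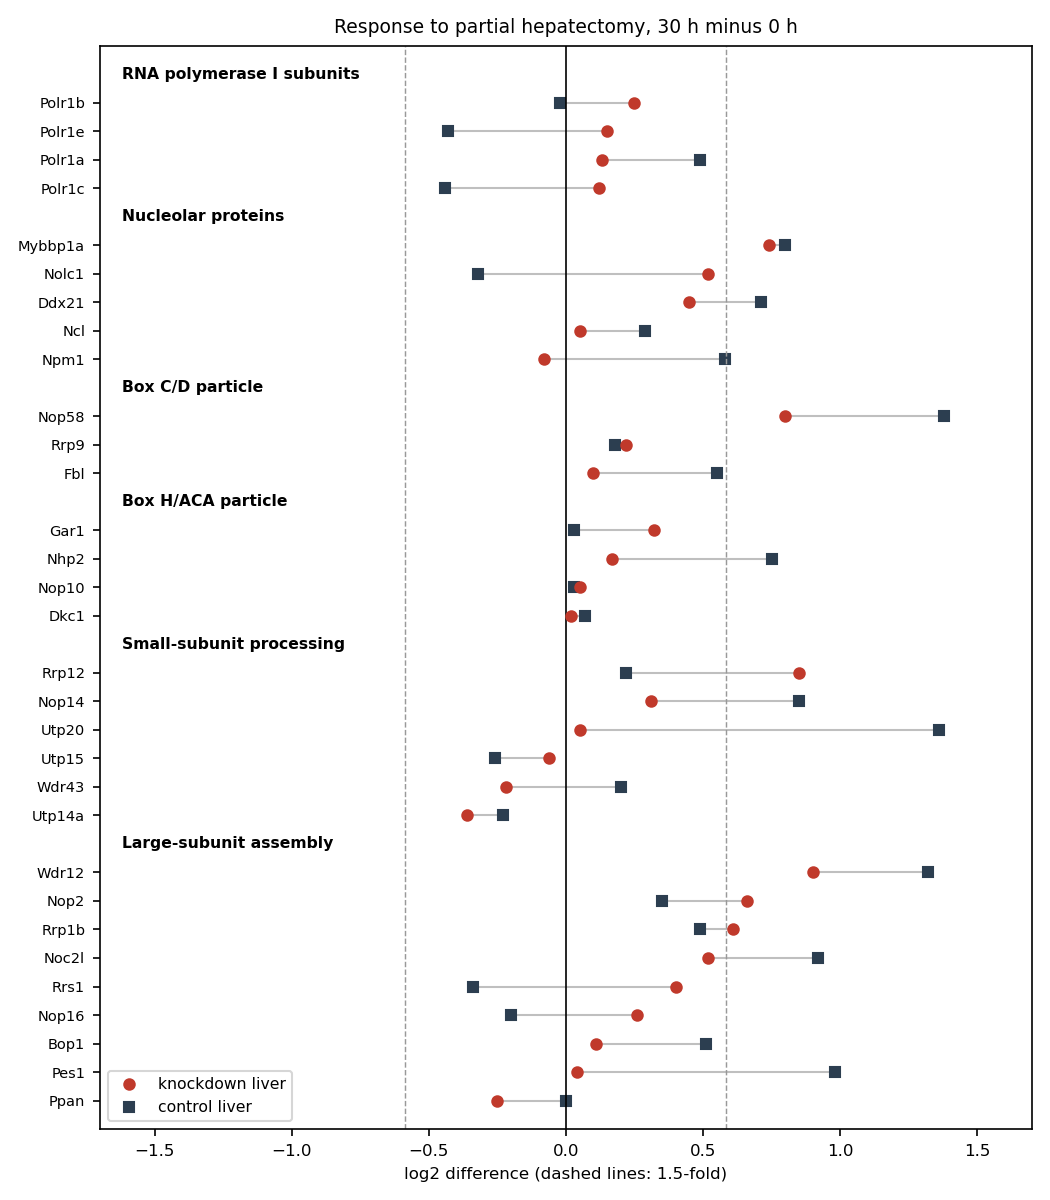
Response of the 31 ribosome biogenesis genes, as the log2 difference of 30 h minus 0 h (horizontal axis) in knockdown liver (red circles) and control liver (dark squares), by role; dashed lines mark 1.5-fold. The circles lie between -0.36 and 0.90 and the squares between -0.44 and 1.38, and the widest gap is that of Utp20.

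Of the 6 roles, RNA polymerase I had the median farthest from 0 in the genotype difference at 0 h. Before surgery its 4 subunits all read lower in the knockdown, with a median of -0.62. Over all genes 9356 of 19505 were lower at 0 h, and the median was 0.01. The 13 measured genes of the wider polymerase I list described below did not share this direction. Of those, 8 were higher in the knockdown at 0 h and 4 lower, with a median of 0.07. Polr1e, which encodes the subunit PAF53, read 4.32 on the knockdown 30 h array and 4.17 on the knockdown 0 h array, against 4.53 and 4.96 in control liver. Its control 0 h value stood above the other 3 arrays, a difference of -0.79 at 0 h (1.73-fold lower) at percentile 3.1 of all genes. Polr1b, the second-largest subunit, read 4.46 and 4.21 in knockdown liver at 30 h and 0 h, against 4.89 and 4.91 in control liver. Both of its knockdown values lay below both control values, by 0.43 at 30 h and by 0.70 at 0 h. Polr1c, a subunit shared with RNA polymerase III, read 5.72 and 5.60 in knockdown liver, against 5.71 and 6.15 in control liver. Its control 0 h array again stood highest. Polr1a, the catalytic subunit, differed from these, with 4.15 and 4.02 in knockdown liver against 4.58 and 4.09 in control liver, and its highest array was control 30 h. Of the 4 subunits, all were higher at 30 h in knockdown liver (0.12 to 0.25) and 3 were lower at 30 h in control liver.

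The 5 genes of nucleolar proteins differed among themselves. Npm1 encodes nucleophosmin, a chaperone that shapes the outer nucleolus. It read 6.98 on the knockdown 30 h array and 7.06 on the knockdown 0 h array, against 7.62 and 7.04 in control liver. Only the control 30 h array stood apart, and the knockdown was lower there by 0.64 (1.56-fold). Ncl, which encodes nucleolin, read 6.51 and 6.46 in knockdown liver against 6.97 and 6.68 in control liver, so both of its control arrays lay above both knockdown arrays. Mybbp1a, a Myb-binding nucleolar protein, was higher at 30 h by like amounts in both genotypes, with 5.69 and 4.95 in knockdown liver and 5.70 and 4.90 in control liver. Ddx21, an RNA helicase that links polymerase I transcription to processing, read 6.15 and 5.70 in knockdown liver and 6.33 and 5.62 in control liver, again higher at 30 h in both. Nolc1 encodes a chaperone of small nucleolar particles and was the exception. Its signal was dim, at percentile 52.1 of gene means. It read 4.04 and 3.52 in knockdown liver, against 3.92 and 4.24 in control liver, so it was higher at 30 h by 0.52 in the knockdown and lower by 0.32 in the control, and its knockdown 0 h value was 1.65-fold below that of the control.

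In the box C/D particle, which methylates ribosomal RNA, Nop58 was among the 3 genes past 2-fold in control liver. This core scaffold gene read 5.38 on the knockdown 30 h array and 4.58 on the knockdown 0 h array, against 6.21 and 4.83 in control liver. Both 30 h arrays lay above both 0 h arrays, with responses of 1.74-fold in knockdown and 2.60-fold in control liver, and at 30 h the knockdown was 1.78-fold lower (-0.83). Fbl, the methyltransferase fibrillarin, read 6.68 and 6.58 in knockdown liver against 6.91 and 6.36 in control liver. Rrp9, which binds the U3 particle, read 6.72 and 6.50 against 6.22 and 6.04. It was the one gene of this particle that was higher in the knockdown at both times, by 0.50 at 30 h and 0.46 at 0 h.

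The box H/ACA particle, which converts uridines to pseudouridine, had small median responses, 0.11 in knockdown and 0.05 in control liver. Nop10 read 9.33 and 9.28 in knockdown liver and 9.27 and 9.24 in control liver, a range of 0.09 over the 4 arrays, the narrowest of the 31 genes. Gar1 read 7.87 and 7.55 in knockdown liver and 7.54 and 7.51 in control liver. Nhp2 was the exception, with 6.96 and 6.79 in knockdown liver against 7.30 and 6.55 in control liver, a control response of 1.68-fold. Dkc1, the pseudouridine synthase dyskerin, read between 2.21 and 2.61 at percentile 18.3 of gene means. At that brightness folds are understated and little can be read from it.

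**Figure D2:**
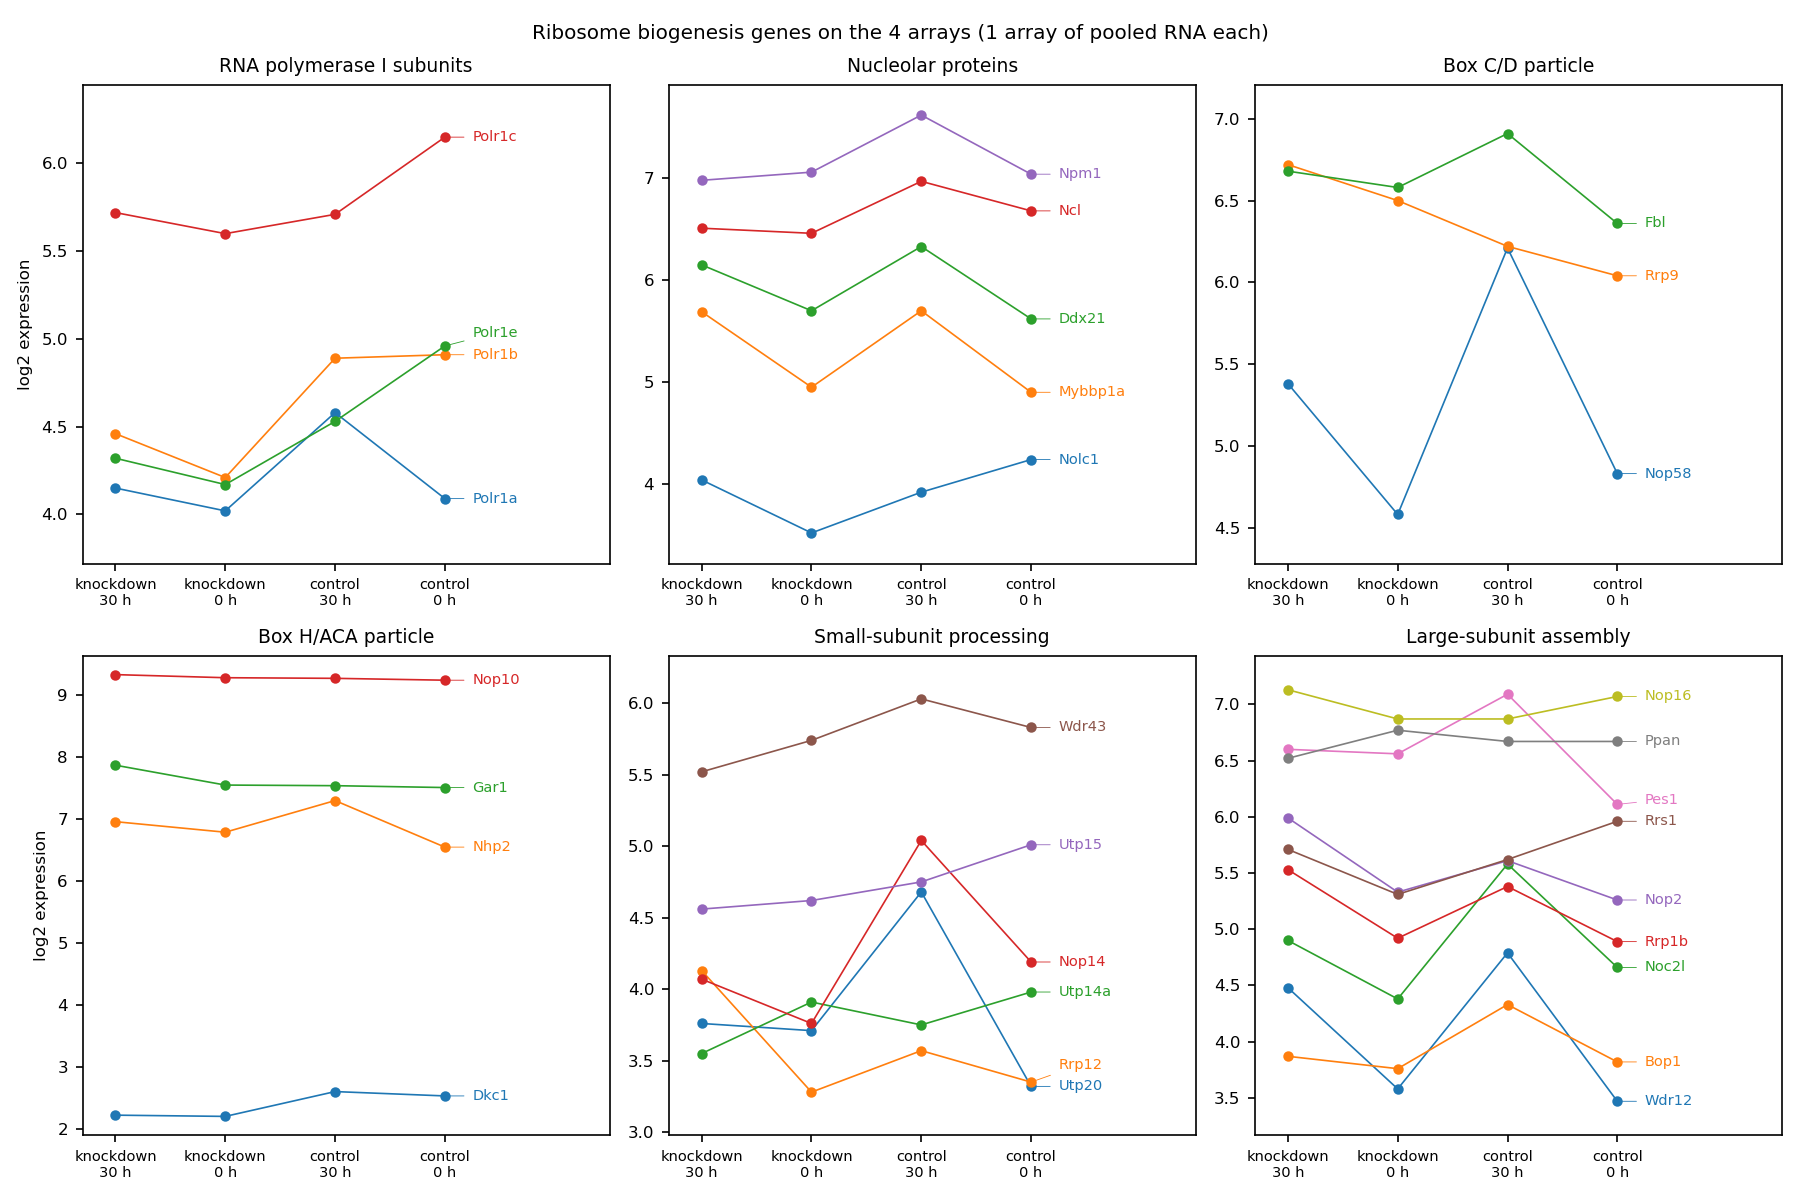
Log2 expression (vertical axis) of each ribosome biogenesis gene on the 4 arrays (horizontal axis, 1 array of pooled RNA each), in 6 panels by role; each line joins the values of 1 gene. Nop58, Utp20, Nop14, Pes1 and Npm1 peak on the control 30 h array, while Polr1c, Polr1e, Nolc1 and Rrs1 are highest on the control 0 h array.

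Small-subunit processing held the gene with the largest difference between the 2 responses. Utp20, a large scaffold protein of the small-subunit processome, read 3.76 on the knockdown 30 h array and 3.71 on the knockdown 0 h array, against 4.68 and 3.32 in control liver. The control arrays thus enclosed both knockdown arrays. The response was 0.05 in knockdown and 1.36 in control liver (2.57-fold), and the difference of responses was -1.31, at percentile 2.1 of all genes. The gene was dim, at percentile 50.7 of gene means, and its difference rests largely on the control 30 h array. Nop14, of the same processome, read 4.07 and 3.76 in knockdown liver, against 5.04 and 4.19 in control liver, so the knockdown was lower at both times, by 0.97 at 30 h (1.96-fold) and by 0.43 at 0 h. Rrp12, a factor of small-subunit maturation and export, went against this, with 4.13 and 3.28 in knockdown liver and 3.57 and 3.35 in control liver. Its highest array was knockdown 30 h, and its response was 1.80-fold in the knockdown and 1.17-fold in the control. The remaining 3 genes of this role, Utp15, Utp14a and Wdr43, differed by at most 0.51 in any single comparison of 2 arrays. They belong to the same processome, and for all 3 the knockdown read below the control at both times.

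Large-subunit assembly included the 3 subunits of the PeBoW complex, which matures the long ribosomal RNAs of that subunit. Wdr12 read 4.48 and 3.58 in knockdown liver at 30 h and 0 h, and 4.79 and 3.47 in control liver, higher at 30 h in both (1.87-fold and 2.50-fold). Pes1 read 6.60 and 6.56 in knockdown liver, against 7.09 and 6.11 in control liver, a response of 0.04 in knockdown and 0.98 in control liver. Bop1 read 3.87 and 3.76 in knockdown liver, against 4.33 and 3.82 in control liver. All 3 were therefore highest on the control 30 h array and lower in the knockdown at 30 h, by 0.31, 0.49 and 0.46, but the response of the knockdown was large for Wdr12 alone. Noc2l, whose yeast homologue accompanies the large subunit out of the nucleolus, read 4.90 and 4.38 in knockdown liver and 5.58 and 4.66 in control liver, lower in the knockdown by 0.68 at 30 h.

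The other large-subunit genes did not share that order. Nop2, a ribosomal RNA methyltransferase, read 5.99 and 5.33 in knockdown liver and 5.61 and 5.26 in control liver. Rrp1b, a nucleolar factor of the same subunit, read 5.53 and 4.92 in knockdown liver and 5.38 and 4.89 in control liver. Both were higher at 30 h in each genotype, and both peaked on the knockdown 30 h array. Rrs1, which in yeast helps to bring the 5S particle into the subunit, read 5.71 and 5.31 in knockdown liver, against 5.62 and 5.96 in control liver. Like Nolc1 it was higher at 30 h in the knockdown (0.40), lower at 30 h in the control (-0.34) and lower in the knockdown at 0 h (-0.65). Nop16 and Ppan, also large-subunit factors, varied by no more than 0.26 over the 4 arrays.

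Between genotypes at 30 h, the knockdown was lower than the control for 21 of the 31 genes and higher for 10, with a median of -0.21, against 0.00 over all genes and -0.11 over the brighter genes. The share lower was 67.7%, against 49.8% of all genes and 61.2% of the brighter genes. At least 1.5-fold lower were 5 genes (16.1%), against 9.19% of all genes and 12.5% of the brighter genes. They were Nop14 (-0.97), Utp20 (-0.92), Nop58 (-0.83), Noc2l (-0.68) and Npm1 (-0.64). None was at least 1.5-fold higher (10.4% of all genes), Rrp12 coming nearest (0.56), and none passed 2-fold in either direction (2.07% higher and 1.86% lower over all genes). Another scaling changed some of these calls. After quantile normalization 3 genes were lower, Npm1 (-0.46) and Noc2l (-0.58) no longer passing, and 1 was higher, Rrp9 (0.67). After cyclic loess 4 were lower, without Npm1, and Rrp9 was higher (0.68). After median centring 6 were lower, with Wdr43 added. Over all genes the lower share was 9.24% after quantile normalization, 9.48% after cyclic loess and 12.8% after median centring. As deposited, the share of lower calls is thus not far from that of the brighter genes, and no difference particular to the 31 genes was shown.

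At 0 h the knockdown was lower than the control for 17 genes and higher for 14, with a median of -0.07, against 0.01 over all genes and 0.06 over the brighter genes. The share higher was 45.2%, against 51.0% of all genes and 56.7% of the brighter genes. At least 1.5-fold lower were 4 genes (12.9%), against 7.52% of all genes and 4.49% of the brighter genes. They were Polr1e (-0.79), Nolc1 (-0.72), Polr1b (-0.70) and Rrs1 (-0.65), and Polr1c (-0.55) came next, passing 1.5-fold after quantile normalization or cyclic loess. None of the 31 genes was at least 1.5-fold higher (7.74%), and none passed 2-fold (1.45% higher and 1.25% lower over all genes). The genotype differences at the 2 times, from different arrays, were nearly unrelated across the 31 genes (Pearson's r 0.05, Spearman's rho 0.09), as they were across all genes (-0.03 and -0.04).

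**Figure D3:**
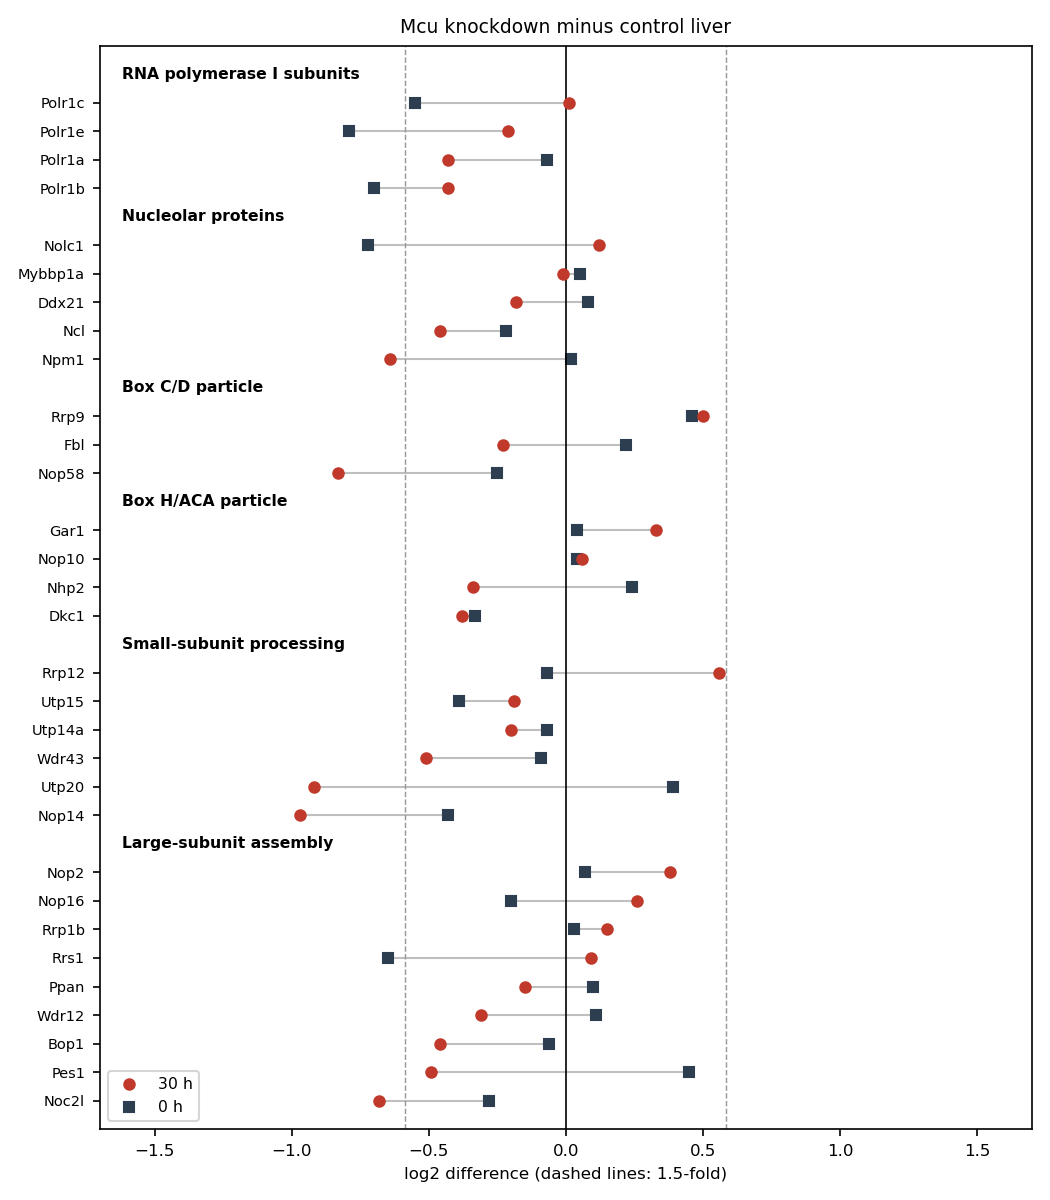
Knockdown minus control, as log2 differences (horizontal axis), at 30 h (red circles) and at 0 h (dark squares) for the 31 ribosome biogenesis genes, by role; dashed lines mark 1.5-fold. All 4 polymerase I subunits lie below 0 at 0 h, and Nop14, Utp20, Nop58, Noc2l and Npm1 lie beyond the lower dashed line at 30 h.

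The difference of responses, knockdown minus control, was below 0 for 18 genes. It was above 0 for 13 (41.9%, against 48.3% of all genes and 36.1% of the brighter genes). Its median of -0.13 lay between those of all genes (-0.02) and the brighter genes (-0.18), and it was 0.01 after quantile normalization and 0.02 after cyclic loess, so no direction is given for the group. At least 1.5-fold below 0 were Utp20 (-1.31), Pes1 (-0.94) and Npm1 (-0.66), and at least 1.5-fold above 0 were Nolc1 (0.84), Rrs1 (0.74) and Rrp12 (0.63). These sets depended on the scaling. After quantile normalization or cyclic loess 5 genes were above 0, with Polr1c (0.78 under both), Polr1e (0.60 under both) and Nop16 (0.72 and 0.74) added and Rrp12 (0.54 and 0.49) lost, and 2 were below, without Npm1 (-0.41 and -0.38). After median centring 2 were above, without Rrp12, and 6 below, with Nop58, Nhp2 and Nop14 added. As deposited, each set is 9.68% of the 31 genes. Below 0 this compares with 17.0% of all genes and 22.5% of the brighter genes. Above 0 it compares with 16.9% of all genes and 9.63% of the brighter genes. Only Utp20 passed 2-fold, on the lower side (3.23% of the 31 genes, against 5.82% of all genes lower and 6.0% higher). Each of these deposited shares lay below that of all genes, but the 1.5-fold share above 0 was close to that of the brighter genes. The 5 genes above 0 compare with 14.7% of all genes after quantile normalization and 14.4% after cyclic loess. Their share was therefore not below that of all genes there. The 6 below 0 after median centring compare with 20.1% of all genes. The differences between the shares were not tested.

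A wider list of 147 other ribosome biogenesis genes, of which 140 were measured, gave the setting. In knockdown liver 75 of the 140 were higher at 30 h and 65 lower, with a median of 0.02, whereas the 31 genes had a median of 0.17. In control liver 110 were higher and 30 lower, with a median of 0.25, close to the 0.29 of the 31 genes. The shares higher in knockdown and control liver were 53.6% and 78.6%, against 50.2% and 49.0% of all genes. Over the brighter genes they were 46.2% and 58.2%. At least 1.5-fold higher were 14 (10.0%, against 10.4% of all genes) in knockdown liver and 36 in control liver (25.7%, against 12.5% of all genes and 17.5% of the brighter genes). Between genotypes at 30 h, 99 of the 140 (70.7%, against 49.8% of all genes and 61.2% of the brighter genes) were lower in the knockdown and 39 higher (median -0.26). At 0 h 57 were lower and 80 higher (median 0.08). The share higher at 0 h was 57.1%, against 51.0% of all genes and 56.7% of the brighter genes. By role, 40 of 50 genes of the small-subunit list were lower in the knockdown at 30 h, as were 37 of 53 of the large-subunit list, 10 of 14 of the exosome list and 9 of 13 of the polymerase I list, but 3 of 10 of the list of small nucleolar particle assembly.

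Single genes of the wider list moved further than any of the 31. In control liver the largest positive responses were those of Dis3, a nuclease of the RNA exosome (1.81), the helicase Ddx27 (1.59) and Polr2l, a subunit shared by the RNA polymerases (1.51). The largest negative ones were Rrp15 (-1.41), Surf6 (-0.79) and Ddx51 (-0.73). In knockdown liver Mak16 (1.06), Nip7 (0.99) and Eif6, which keeps immature large subunits from joining (0.96), were the highest, and Polr2e (-0.98), Lsg1 (-0.87) and Ddx47 (-0.80) the lowest. At 30 h the knockdown was lowest against control for Ddx27 (-1.13), the exosome subunit Exosc7 (-1.08) and Nop9 (-1.05), and highest for Surf6 (1.04), Rpap3 (0.80) and Shq1 (0.63). At 0 h it was highest for Dis3 (1.21), Ddx47 (1.08) and Ddx27 (0.90), and lowest for Rrp15 (-1.09), Utp4 (-0.92) and Taf1b, a subunit of the polymerase I initiation factor (-0.89). Dis3 had the lowest difference of responses (-2.04), followed by Ddx27 (-2.03) and Exosc7 (-1.48), while Rrp15 (1.39), Surf6 (1.24) and Tma16 (1.11) had the highest. Dis3 read 4.49 and 4.72 in knockdown liver, against 5.32 and 3.51 in control liver, the same order over the arrays as Utp20 except that its knockdown 0 h array was above the 30 h one.

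Cytosolic ribosomal protein genes, the structural partners of the pathway, moved more evenly. Of 60 measured, 53 (88.3%, against 50.2% of all genes) were higher at 30 h in knockdown liver, with a median of 0.32. In control liver 57 were higher (95.0%, against 49.0% of all genes), with a median of 0.46. Their SD over genes was 0.26 in knockdown and 0.28 in control liver, against 0.33 and 0.53 for the 31 biogenesis genes and 0.51 and 0.56 over all genes. The ribosomal protein genes were also brighter, averaging 8.14 to 8.60 on the 4 arrays, against 5.22 to 5.68 for the 31 genes. Between genotypes the median of the ribosomal protein genes was -0.07 at 30 h and 0.04 at 0 h. Probe sets of ribosomal proteins can also detect processed copies of these genes. The 6 measured MCM genes, which serve DNA replication, had a median of 1.92 in knockdown and 3.21 in control liver. In each genotype 5 of them passed 2-fold higher, the exception being Mcm10 (-0.39 in knockdown and -0.17 in control liver).

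**Figure D4:**
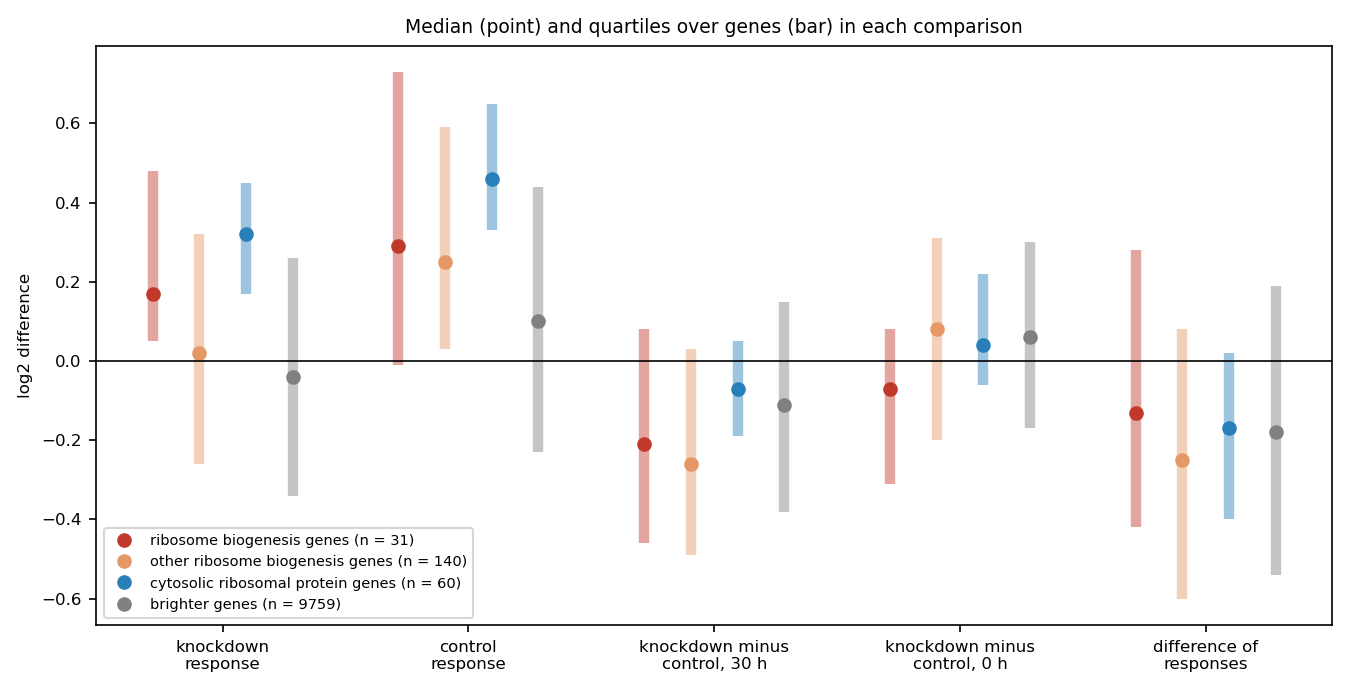
Log2 difference (vertical axis) in each of the 5 comparisons (horizontal axis) for the 31 ribosome biogenesis genes, the other ribosome biogenesis genes, cytosolic ribosomal protein genes and the brighter genes; points are medians and bars run between the quartiles over genes, not between replicates. In control liver the medians are 0.29, 0.25, 0.46 and 0.10 in that order.

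Myc itself followed neither set. It read 5.54 on the knockdown 30 h array and 3.88 on the knockdown 0 h array, against 4.56 and 4.43 in control liver, so its response was 1.66 (3.16-fold) in the knockdown and 0.13 in the control. It was higher in the knockdown by 0.98 at 30 h and lower by 0.55 at 0 h. Of the 31 genes, 7 were highest on the knockdown 30 h array, as Myc was (Rrp9, Gar1, Nop10, Rrp12, Nop2, Nop16 and Rrp1b), whereas 16 were highest on the control 30 h array, 7 on the control 0 h array and 1, Ppan, on the knockdown 0 h array. The share on the control 30 h array was 51.6%, against 26.2% of all genes and 35.3% of the brighter genes, and that on the knockdown 30 h array was 22.6%, against 25.7% and 20.6%. Max, the partner of Myc, differed by 0.37 or less in every comparison of 2 arrays. The Myc antagonist Mxi1 read 3.99 and 5.22 in knockdown liver and 4.70 and 5.17 in control liver, lower at 30 h in both. Mxd4 was lower at 30 h in the control (-0.87) and not in the knockdown (-0.06), and Mga was higher at 30 h in the control (0.89) and lower in the knockdown (-0.39). The other members of the Myc network (Mycn, Mycl, Mxd1, Mxd3, Mnt and Mlx) had responses between -0.48 and 0.53 in knockdown liver and between -0.41 and 1.19 in control liver.

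In bulk liver, fewer cells of a type and less RNA per cell cannot be told apart, and markers of other cells moved with the comparisons. The 10 Kupffer cell markers averaged 5.47 on the knockdown 30 h array and 5.54 on the knockdown 0 h array, against 5.78 and 5.15 in control liver, with 8 of 10 lower in the knockdown at 30 h and 9 of 10 higher at 0 h. The 9 sinusoidal endothelial markers averaged 4.45 and 5.11 in knockdown liver, against 4.66 and 4.68 in control liver. Within knockdown liver 8 of 9 were lower at 30 h than at 0 h, and within control liver 6 of 9. Between genotypes 6 of 9 were lower in the knockdown at 30 h, and 8 of 9 were higher at 0 h. Over all genes 49.8% were lower in the knockdown at 30 h and 51.0% higher at 0 h. The 10 stellate cell markers averaged 5.09 and 5.42 in knockdown liver, against 5.18 and 4.99 in control liver. The 5 cholangiocyte markers averaged 3.45 and 3.14 in knockdown liver, against 3.40 and 3.48 in control liver. Neutrophil markers averaged between 2.74 and 3.16, lymphocyte markers between 2.77 and 3.13 and erythroid markers between 4.16 and 5.06 over the 4 arrays. The control 30 h array had the highest mean of the Kupffer list, but its list median (5.88) was close to that of the knockdown 0 h array (5.86). Vsig4, Cd5l, Adgre1 and Marco were highest on the control 30 h array. Clec4f, C1qa, C1qb, C1qc and Csf1r were highest on the knockdown 0 h array, and Timd4 on the knockdown 30 h array. The part of these cells in the values of the biogenesis genes was not tested.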

How the data were processed

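Liver RNA of 4 groups was measured on 4 arrays, each treated as 1 pooled sample and grouped by its title. For each probe set the authors deposited a log2 value. The submitters' processing notes name RMA and Affymetrix Expression Console, without roles. RMA as commonly run forces like distributions on the arrays, which would lose a change common to all genes, and understates folds of dim genes. The deposited arrays were not fully alike. Quantile normalization moved the median difference of responses over the brighter genes from -0.18 to -0.03. The sources used here do not give versions, parameters or the genome build. The genotype label of the knockdown samples does not match the floxed Mcu of the treatment protocol and is not reported here, so the genotype comparisons rest on the titles, source names and virus labels.

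Of 22206 probe sets, 19572 carried 1 gene symbol in GEO's platform annotation, 0 carried several and 2634 were unnamed. Symbols were updated by Entrez ID to RefSeq names (GRCm38.p6), and all 19572 matched. Where a gene had several probe sets (55 of 19505 genes), the one with the highest mean was used. Differences between arrays were taken in 5 comparisons and genes were counted at 2-fold and 1.5-fold. No test was run, because each group has 1 array. With 4 arrays, their number limits the precision. The members and lists were chosen with earlier results of these data known, so nothing here supports an earlier pattern independently. The text names every measured member, and of the wider list the 3 highest and 3 lowest genes in each comparison. Alternatives were the brighter genes only, the mean of probe sets, the mean of the genes, a 1.5-fold threshold, median centring, quantile normalization and cyclic loess (limma 3.58.1 in R 4.3.3). The counting was tested on simulated data. Tables were made in Python 3.11.15 with pandas 2.3.3.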

Additional observations from a re-analysis of the deposited data

Results flagged for a closer look

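Each group has 1 array, so outlying samples were not looked for. Genes were singled out where the 2 genotypes responded in opposite directions, or where the genotype difference had opposite directions at the 2 times, each by at least 0.1 on the log2 scale. None of these differences was tested.

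Between the responses, 6 of the 31 genes ran in opposite directions. Higher at 30 h in knockdown and lower in control liver were Polr1c (difference of responses 0.56), Polr1e (0.58), Nolc1 (0.84), Rrs1 (0.74) and Nop16 (0.46). Wdr43 ran the other way (-0.42), with -0.22 in knockdown and 0.20 in control liver. Shares over all genes were not taken at the minimum of 0.1. By sign alone 6 of the 31 genes were higher in knockdown and lower in control liver, and 2 the reverse. Over all 19505 genes these counts were 4461 and 4235, so opposite directions are common among genes in general.

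Between the times, 8 genes had genotype differences of opposite direction. Lower in the knockdown at 30 h and higher at 0 h were Utp20 (-1.31), Pes1 (-0.94), Nhp2 (-0.58), Fbl (-0.45), Wdr12 (-0.42) and Ppan (-0.25). Nolc1 (0.84) and Nop16 (0.46) were higher at 30 h and lower at 0 h. By sign alone 9 of the 31 genes were lower at 30 h and higher at 0 h, and 5 the reverse. Over all 19505 genes these counts were 5122 and 4780.

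The minimum of 0.1 was met under all 3 scalings by 4 of the 6 responses (Polr1e, Nolc1, Rrs1 and Nop16) and by 4 of the 8 genotype differences (Utp20, Pes1, Nhp2 and Nop16). The response of Polr1c in knockdown liver was 0.07 after median centring, and that of Wdr43 in control liver was 0.02 after quantile normalization and 0.06 after cyclic loess. At 30 h Nolc1 was at 0.03 to 0.04 under the 3 scalings, Fbl at -0.04 after quantile normalization and -0.05 after cyclic loess, and Ppan at 0.04 and 0.03, no longer lower. At 0 h Wdr12 was at 0.09 after median centring and just under the minimum after cyclic loess.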

How the results depend on the processing

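With 1 array per group no array could be left out, and no paired analysis was possible because each group has 1 sample. Of 90 alternative values, 77 stayed close to the reported value (a median within 0.1, a count within 1.5 times), 11 moved further and 2 changed sign. The median difference of responses (-0.13) was 0.01 after quantile normalization and 0.02 after cyclic loess. Under both settings the median of the brighter genes was -0.03, against -0.18 as reported, and the cause was not tested. Over the 28 brighter genes the median was 0.42 for the control response and -0.24 for the difference of responses. At 1.5-fold in place of 2-fold, 6 genes were higher in the knockdown response and 9 in the control response, 5 were lower at 30 h, 4 were lower at 0 h, and 3 lay on each side for the difference of responses. Median centring gave 2 genes at least 2-fold lower in the knockdown at 30 h, as did cyclic loess (2), and 2 for the difference of responses. Of 30 differences of at least 1.5-fold for single genes, 0 changed sign under the 3 scalings, but 7 fell under 1.5-fold in at least 1 of them and 23 stayed past it in all 3. Smaller differences changed sign under at least 1 scaling for 3 to 5 of the 31 genes in each comparison. Dim signal limits what can be said of Dkc1, Rrp12 and Utp14a, and of Utp20, whose mean lay just above the cut. The same limit touches Nolc1, Bop1 and Wdr12, with means of 3.93, 3.945 and 4.08.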
